A study of Mus musculus with 9 samples.

Results

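The cytosolic ribosomal protein genes encode the protein shell of the ribosome that translates nuclear-encoded messages. They were taken from a mouse kidney count table by symbol: protein-coding genes named Rpl or Rps with a number, the acidic stalk genes Rplp0 to Rplp2, and Rpsa, kept where at least 10 raw reads were counted in 3 or more of the 9 libraries. Of 81 protein-coding genes with such a name, 79 passed, out of 56923 genes in the table: 48 of the large subunit and 31 of the small subunit. The others, Rpl10l and Rpl39l, had 0 counts in every library, and 3 further genes with a matching name (Rpl32l, Rpl6l and Rps4l) are annotated as pseudogenes. All 79 had at least 10 counts in all 9 libraries, with single counts from 25 to 8196, and all 79 were tested.

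The libraries were made from kidney RNA of mice labelled WT and form 3 groups of 3. The sham group had surgery without ischaemia-reperfusion (IR) injury and received PBS. The AKI_PBS group (acute kidney injury) had IR injury and received PBS. The AKI_PTPi_mEVs group had IR injury and was given extracellular vesicles from milk that carried siRNA against PTP1B, a tyrosine phosphatase. The title of library AKI_PTPi_mEVs 2 spells the treatment PTP@mEVs, where the titles of the other treated libraries spell it PTPi@mEVs. That library was grouped with them by its labels. No group with empty vesicles or a control siRNA was analysed here, so the siRNA, the vesicle and the delivery cannot be told apart. The labels used here give neither the age and sex of the mice nor the time of sampling, and do not say whether each library is a different animal; p-values measure the spread between these libraries, which may be technical.

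A ribosome joins a small subunit, which reads the message, to a large subunit, which forms the peptide bonds, and each needs nearly every one of its ribosomal proteins. Most ribosomal protein messages begin with a terminal oligopyrimidine (TOP) tract, a run of C and T bases at the 5′ end, through which mTORC1 and the RNA-binding protein LARP1 control their translation and stability. The kidney tubule uses much of its energy on transport and, after ischaemia, on repair, and both protein synthesis and ribosome supply are known to change in injured tissue.

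Sequences around the annotated transcription start were read from RefSeq (GRCm38.p6) to show whether a pyrimidine run stands near that start. Each window below holds the 20 bases before the start and 20 bases from the start on, so that base 21 is the annotated first base. Capitals mark the longest unbroken run of C and T on the gene's own strand that touches the 5 bases either side of the start. The 6 genes are those on which the results turn: 3 with large changes (Rpl10a, Rps12 and Rps15a), the only gene called above sham in the treated kidneys (Rpl4), and the paralogs Rps27 and Rps27l, of which only Rps27 was called.
Rpl10a, chr17:28328451-28328490, plus strand: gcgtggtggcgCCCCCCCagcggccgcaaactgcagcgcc
Rps12, chr10:23787190-23787229, minus strand: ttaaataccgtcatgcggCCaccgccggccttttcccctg
Rps15a, chr7:118116128-118116167, minus strand: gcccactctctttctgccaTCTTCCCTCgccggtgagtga
Rpl4, chr9:64173367-64173406, plus strand: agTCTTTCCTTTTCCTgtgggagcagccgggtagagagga
Rps27, chr3:90213629-90213668, minus strand: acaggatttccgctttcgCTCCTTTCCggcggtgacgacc
Rps27l, chr9:66946066-66946105, plus strand: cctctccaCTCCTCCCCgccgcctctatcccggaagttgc

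A window was found for 59 of the 79 genes, 36 of the large and 23 of the small subunit. A run of 8 or more C or T bases at the start was present in 23 of them (39%), in 14 large and 9 small subunit genes, against 11.4% of 27025 genes of all kinds in the same table. Annotated starts can lie some bases from the start in use, so that a missing run says only that these letters are not in this window. Rps15a has its run across the annotated start, and Rpl10a and Rps12 have runs of 7 and 2 bases just before it.

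Library totals were 9467851 to 11389479 counts. Ptpn1, which encodes PTP1B, was at 80.9, 90.5 and 98.8 CPM (counts scaled to the TMM-adjusted size of the library) in sham, 123, 148 and 170.4 in AKI_PBS and 106, 106 and 94.0 in AKI_PTPi_mEVs; it was lower in AKI_PTPi_mEVs than in AKI_PBS (log2 fold change -0.53 ± 0.15, edgeR adjusted p = 0.00862) and its sham and AKI_PTPi_mEVs libraries overlapped. Markers of the labelled tissue were present: all 10 proximal tubule markers were measured, with a summed level of 13630 to 16490 CPM in sham. That sum was 4898 to 8062 in AKI_PBS and 9809 to 14220 in AKI_PTPi_mEVs, lower in every AKI_PBS library than in every library of the other groups. Of 7 neutrophil markers listed, the 6 measured summed to 0.0980 to 0.372 CPM in sham, 12.02 to 26.24 in AKI_PBS and 0.550 to 0.873 in AKI_PTPi_mEVs. In sham 4 of the 7 listed were at 0 in every library. The summed level of the 7 macrophage markers overlapped between all groups, at 116 to 157 CPM in sham, 85.0 to 126.5 in AKI_PBS and 96.8 to 122.7 in AKI_PTPi_mEVs. Single macrophage markers went both ways. In AKI_PBS against sham 1 of the 7 was called higher (Cd68, log2 fold change 2.28 ± 0.31) and 2 lower (Csf1r, -1.96 ± 0.16, and Adgre1, -2.44 ± 0.52). Of all genes tested 27.8% were called higher and 27.9% lower there. The 5 thick limb markers summed to 2298 to 2597 CPM in sham, 1038 to 1573 in AKI_PBS and 1833 to 2142 in AKI_PTPi_mEVs. Not every tubule marker followed these sums. In AKI_PTPi_mEVs against AKI_PBS, 8 of 10 proximal tubule, 3 of 5 thick limb and 3 of 7 distal and collecting duct markers were higher. In each list 1 was lower, where 25.4% of all genes were called higher and 25.8% lower. The thick limb gene was Cldn16 (-0.71 ± 0.19), which had no call in AKI_PBS against sham (-0.11 ± 0.19). Podocyte markers, 4 of 4 measured, summed to 188.6 to 239.9 CPM in sham, 273.1 to 385.1 in AKI_PBS and 204.0 to 210.9 in AKI_PTPi_mEVs. The part of these shifts in the ribosomal protein levels was not tested. In bulk RNA a change in the number of cells of a type, in RNA per cell and in the expression of the markers themselves cannot be told apart.

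The summed level of the 79 genes was higher in every AKI_PBS library than in every sham library. It was 4874, 4737 and 4191 CPM in sham, 7098, 7186 and 5362 CPM in AKI_PBS, and 3988, 6141 and 5148 CPM in AKI_PTPi_mEVs. As group means this was 4600 ± 361.5 CPM (SD, n = 3), 6548 ± 1029 and 5092 ± 1078, and the whole set took 0.392 to 0.503% of a sham library's counts, a small share. The AKI_PTPi_mEVs libraries spanned the sham range and reached into the AKI_PBS range. Libraries differed within their groups in a way shared by most members: sham 3 was the lowest of its group for 70 of the 79 genes, AKI_PBS 3 for 62 and AKI_PTPi_mEVs 1 for 73, while AKI_PTPi_mEVs 2 was the highest for all 79. The members therefore do not vary independently, and a library that stands apart moves most of them at once.

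**Figure D1:**
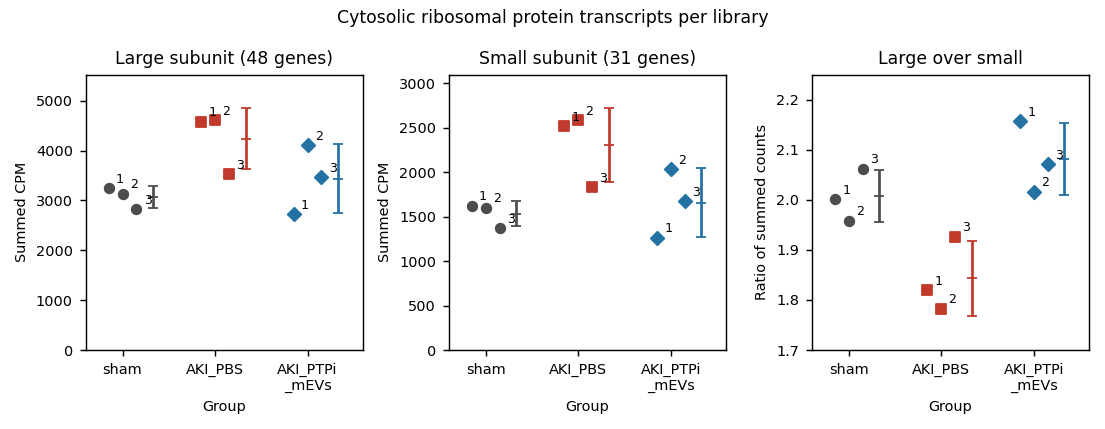
Summed CPM of the 48 large and 31 small subunit genes and the ratio of their summed counts in each of the 9 libraries (points, numbered by replicate; tick and bars, mean and SD of 3 libraries; the ratio axis does not start at 0). All 3 AKI_PBS libraries lie above all sham libraries in both sums and below them in the ratio.

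Injury was compared with sham surgery first. After IR injury with PBS, 46 of the 79 ribosomal protein genes (58.2%) rose and 0 fell, by edgeR's quasi-likelihood test at an adjusted p under 0.05 across all 17036 genes tested; of all these genes 27.8% were called higher and 27.9% lower. At an unadjusted p under 0.05, 54 were higher and 0 lower, and DESeq2 and limma voom also called 0 lower. The median log2 fold change of the 79 was 0.56, against 0.03 over all genes tested, and 76 of them lay above 0, as did 51.1% of all genes. Both subunits contributed: 25 of 48 large subunit genes rose, with a median of 0.51, and 21 of 31 small subunit genes rose, with a median of 0.60. The changes were moderate, since called values ran from 0.47 to 1.40 and 33 genes were both called and past 1.5-fold, against 23.0% of all genes higher and 24.5% lower. In 44 genes the lowest AKI_PBS library lay above the highest sham library; that was so for 31.2% of all genes tested, and the reverse, found in 0 members, for 30.9%.

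The count of 46 depended on single libraries. It was 23 without sham 3 and 27 without AKI_PBS 2, and otherwise at least 33. Of the 46, 23 passed with every library left out in turn, among them Rpl10a, Rpl17, Rpl38, Rps12, Rps15a, Rps24 and Rpsa.

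**Figure D2:**
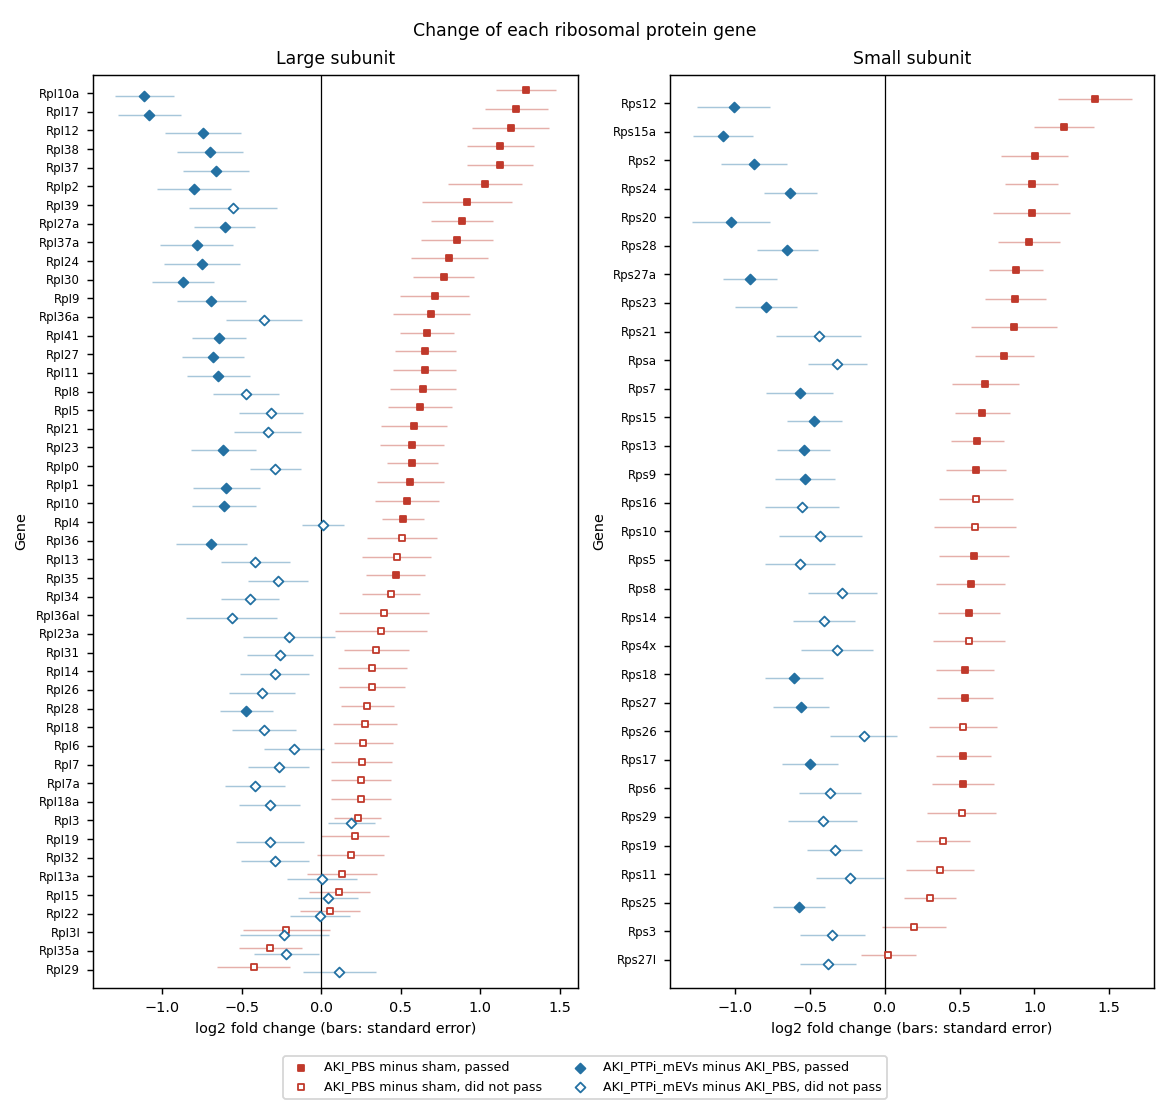
Log2 fold change of each of the 79 genes, ordered by the change in AKI_PBS against sham (red squares) and with the change in AKI_PTPi_mEVs against AKI_PBS (blue diamonds); bars are standard errors and filled symbols passed an edgeR adjusted p under 0.05. Filled red symbols all lie above 0 and filled blue symbols all lie below it; both comparisons share the AKI_PBS libraries.

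Among large subunit proteins, Rpl10a, which builds the mobile stalk beside the exit site for tRNA, changed the most. Its level was 47.0, 43.4 and 40.2 CPM in sham and 96.0, 136 and 87.3 CPM in AKI_PBS, a log2 fold change of 1.29 ± 0.19 (standard error; edgeR adjusted p = 8.78e-05). The lowest AKI_PBS library was far above the highest sham library. Rpl17, which lines the tunnel through which the new peptide leaves, was at 29.1, 34.5 and 25.4 CPM in sham and 79.1, 70.7 and 58.7 in AKI_PBS (1.23 ± 0.20). Rpl12, at the base of the stalk that recruits elongation factors, went from 26.8, 24.4 and 20.1 to 62.7, 61.8 and 38.1 CPM (1.19 ± 0.24). These groups did not overlap in either gene. Rpl38, whose loss in mice alters the translation of Hox messages, had a log2 fold change of 1.13 ± 0.21, close to that of Rpl37 (1.12 ± 0.21), and Rpl27a one of 0.88 ± 0.20. All 6 kept their calls with any 1 library left out.

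Among small subunit proteins, Rps12 had the largest change of all 79 genes. It was at 12.2, 9.77 and 7.92 CPM in sham and 22.1, 33.8 and 23.4 CPM in AKI_PBS (log2 fold change 1.40 ± 0.25, edgeR adjusted p = 0.000418). Rps15a, which binds the small ribosomal RNA, was at 12.9, 9.95 and 8.53 CPM in sham and 21.96, 27.9 and 22.2 in AKI_PBS (1.20 ± 0.20). In both genes every AKI_PBS library exceeded every sham library by a wide margin. Rps2, at the channel where the message enters, stood at 68.7, 112 and 144 CPM in sham and 227, 247 and 176 in AKI_PBS (1.001 ± 0.22). Its sham libraries spread more than 2-fold and ran against the shared pattern, with sham 3 the highest. Rps24 and Rps28, both mutated in families with Diamond-Blackfan anaemia, had values of 0.98 ± 0.18 and 0.96 ± 0.21.

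**Figure D3:**
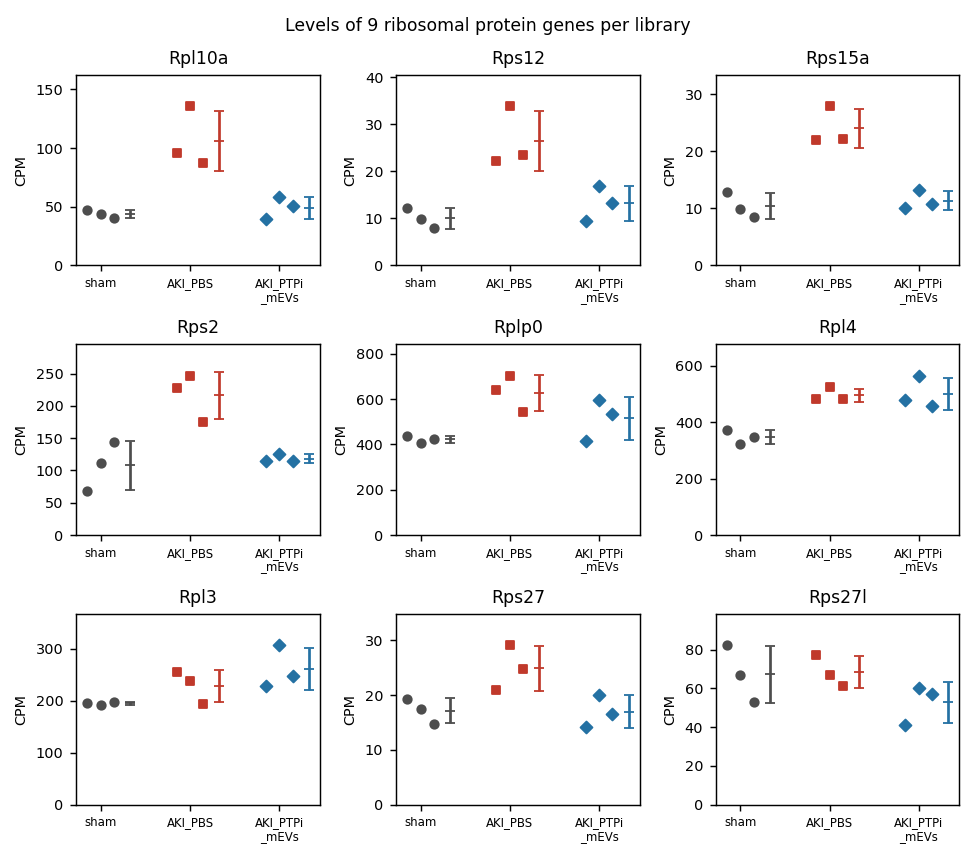
CPM of 9 ribosomal protein genes in each library (points; tick and bars, mean and SD of 3 libraries). Rpl10a, Rps12 and Rps15a are highest in the 3 AKI_PBS libraries, Rpl4 is as high in AKI_PTPi_mEVs as in AKI_PBS, and Rps27l does not separate sham from AKI_PBS.

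The acidic stalk, which docks the elongation factors, rose in all its parts. Rplp0, its scaffold, had the highest CPM per kilobase of transcript in sham, at 311.2, ahead of Rpl4 (225.6) and Rpl19 (189.3). Rplp0 was at 438, 408 and 422 CPM in sham and 639, 703 and 544 CPM in AKI_PBS (log2 fold change 0.57 ± 0.16). Its partners Rplp2 and Rplp1 had values of 1.03 ± 0.23 and 0.56 ± 0.21; the Rplp1 call (edgeR adjusted p = 0.0376) was lost without sham 2 (0.63), sham 3 (0.37), AKI_PBS 2 (0.38) or AKI_PTPi_mEVs 3 (0.55), and with a stricter filter on low counts (0.53). Rpsa, the ribosomal protein also known as the laminin receptor, was at 141, 147 and 153 CPM in sham and 257, 315 and 194 in AKI_PBS (0.80 ± 0.20), with no overlap.

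Members with a second known function moved with the rest. Rpl5 and Rpl11, which with the 5S RNA bind and inhibit MDM2 when ribosome assembly is disturbed, had log2 fold changes of 0.62 ± 0.20 and 0.65 ± 0.20. The Rpl5 call was lost without sham 2, sham 3, AKI_PBS 1 or AKI_PBS 2 (0.62, 0.59, 0.48 and 0.56), and the Rpl11 call without sham 3 (0.56). Rps27a, made as a fusion with ubiquitin, had 0.88 ± 0.18. Rps6, the substrate of the S6 kinases, was at 111, 101 and 96.8 CPM in sham and 175, 156 and 112 in AKI_PBS (0.52 ± 0.21, edgeR adjusted p = 0.0453), the weakest call among these; it was lost without any 1 of sham 1, 2 or 3, AKI_PBS 1 or 2, or AKI_PTPi_mEVs 3, with values of 0.38 to 0.57, and with limma voom (0.50) or a stricter filter on low counts (0.49). Rpl10, which completes the large subunit late in its assembly, had 0.54 ± 0.20 with overlapping groups, and its call was lost without sham 1, sham 3, AKI_PBS 1 or AKI_PBS 2 (0.51, 0.45, 0.36 and 0.53) and with the stricter filter (0.51).

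The 33 genes without a call were spread over both subunits, 23 large and 10 small. Rpl3, which reaches towards the catalytic centre, was at 196, 192 and 198 CPM in sham and 255, 238 and 194 in AKI_PBS (0.23 ± 0.15, edgeR adjusted p = 0.205), and was called with a correction for GC content and length (0.38). The lowest values of all belonged to Rpl29 (-0.42 ± 0.23), Rpl35a (-0.32 ± 0.20) and Rpl3l (-0.22 ± 0.27), the 3 members below 0; Rpl29 and Rpl35a were named after their values were seen. Rpl29 was at 62.4, 74.3 and 55.8 CPM in sham and 64.1, 45.9 and 33.6 in AKI_PBS, and the groups overlapped. It was called lower without AKI_PBS 1 (-0.69).

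Treated kidneys were compared with injured kidneys given PBS next. In AKI_PTPi_mEVs, 35 of the 79 genes (44.3%) were lower than in AKI_PBS and 0 were higher by edgeR at an adjusted p under 0.05; of all genes tested 25.8% were called lower and 25.4% higher. At an unadjusted p under 0.05, 40 were lower and 0 higher, and DESeq2 and limma voom called 0 higher. The median log2 fold change was -0.47, against -0.03 over all genes, and 74 members lay below 0 and 5 above, where 48.7% of all genes lay above. Past 1.5-fold, 27 were lower and 0 higher, against 21.6% and 21.3% of all genes. The large subunit had 19 of 48 genes lower (median -0.41) and the small subunit 16 of 31 (median -0.53). In 34 genes every AKI_PTPi_mEVs library lay below every AKI_PBS library, as in 29.2% of all genes; the reverse held for 0 members and 28.7% of all genes. The comparison shares the AKI_PBS libraries with the one against sham, so that a high or low AKI_PBS library enters both with opposite sign. Scaling by library totals in place of TMM factors moved the median of all genes from -0.03 to -0.13 and that of the members to -0.58.

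This count also rested on few libraries. It was 11 without AKI_PTPi_mEVs 1, the library lowest for most members, 15 without AKI_PBS 2 and 17 without AKI_PTPi_mEVs 3, and rose to 47 without AKI_PBS 3. The 10 genes called lower with every library left out in turn were Rpl10a, Rpl17, Rpl30, Rpl41, Rps12, Rps15a, Rps2, Rps20, Rps23 and Rps27a.

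**Figure D4:**
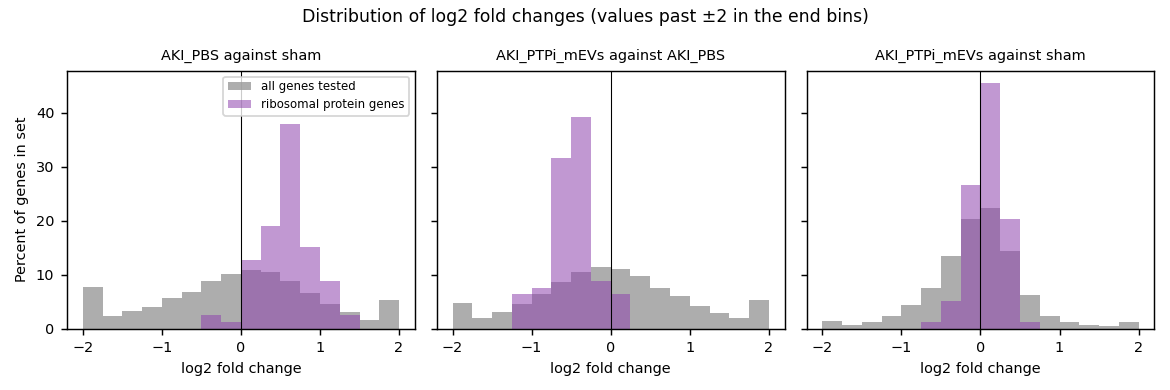
Log2 fold changes of the 79 ribosomal protein genes (purple) and of all 17036 genes tested (grey), as the percent of each set per bin of 0.25, with values past 2 in the end bins. The members' medians are 0.56, -0.47 and 0.08 in the 3 comparisons, and their range is narrower than that of all genes.

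Rpl10a again had the largest change of the large subunit, with 39.3, 58.0 and 50.6 CPM in AKI_PTPi_mEVs against 96.0, 136 and 87.3 in AKI_PBS (log2 fold change -1.11 ± 0.18, edgeR adjusted p = 0.000342). Rpl17 was at 24.1, 41.2 and 33.5 CPM (-1.08 ± 0.20). In neither gene did the groups overlap. Rpl30 had a log2 fold change of -0.87 ± 0.19, and Rpl41, the smallest ribosomal protein, one of -0.64 ± 0.17. Rpl27 (-0.68 ± 0.19) and Rpl11 (-0.65 ± 0.20) were called, but Rpl27 was not without AKI_PTPi_mEVs 1 (-0.54) or AKI_PTPi_mEVs 3 (-0.57), and Rpl11 was not without AKI_PBS 1 (-0.55) or AKI_PTPi_mEVs 1 (-0.43).

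In the small subunit Rps15a was at 10.1, 13.2 and 10.8 CPM in AKI_PTPi_mEVs (-1.08 ± 0.20, edgeR adjusted p = 0.000711) and Rps12 at 9.45, 16.9 and 13.2 CPM (-1.01 ± 0.25), all of these libraries below those of AKI_PBS. Rps20 had a value of -1.03 ± 0.26, the ubiquitin fusion gene Rps27a one of -0.90 ± 0.18, and Rps23, whose protein sits at the decoding centre, one of -0.79 ± 0.21. Rps2 was at 115, 126 and 115 CPM (-0.87 ± 0.22), with the 3 treated libraries closer together than those of the other groups.

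The stalk did not move as a unit in this comparison. Rplp2 (-0.80 ± 0.23) and Rplp1 (-0.60 ± 0.21) were lower, whereas their scaffold Rplp0, at 413, 597 and 535 CPM in AKI_PTPi_mEVs, did not pass (-0.29 ± 0.16, edgeR adjusted p = 0.144); whether these changes differ from each other was not tested. The Rplp2 call was lost without AKI_PBS 2 (-0.61) or AKI_PTPi_mEVs 1 (-0.61), and the Rplp1 call without AKI_PBS 2 (-0.41), AKI_PTPi_mEVs 1 (-0.45) or AKI_PTPi_mEVs 3 (-0.59) and with a correction for GC content and length (-0.35). Rplp0 passed with library totals (-0.40) or with the same correction (-0.39). Rpsa (-0.31 ± 0.20), Rps6 (-0.37 ± 0.21) and Rpl5 (-0.31 ± 0.20) did not pass either, and each did without AKI_PBS 3 (-0.47, -0.53 and -0.49); Rps6 also passed without AKI_PTPi_mEVs 2 (-0.57). Rpl10 passed (-0.61 ± 0.20), but not without AKI_PBS 1 (-0.43), AKI_PBS 2 (-0.60) or AKI_PTPi_mEVs 1 (-0.42). Rpl4, which lines the peptide tunnel, was at 482, 523 and 481 CPM in AKI_PBS and 477, 564 and 458 CPM in AKI_PTPi_mEVs (0.01 ± 0.13), and Rpl3 was at 228, 307 and 248 CPM in AKI_PTPi_mEVs (0.19 ± 0.15). Both groups of libraries overlapped in these genes.

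Against sham, the treated kidneys had 1 ribosomal protein gene called higher and 0 lower by edgeR, where 7.43% of all genes tested were called higher and 5.79% lower. At an unadjusted p under 0.05, 3 were higher and 1 lower; DESeq2 and limma voom also called 1 higher and 0 lower. The median of the 79 was 0.08, against -0.01 over all genes, and 53 members lay above 0, as did 48.9% of all genes. The sign of that median turned without AKI_PTPi_mEVs 2 (-0.12) or sham 3 (-0.02), and it was 0.25 without AKI_PTPi_mEVs 1, 0.13 without sham 1, 0.14 without sham 2 and 0.26 with the GC content and length correction. None was both called and past 1.5-fold (0 members, against 5.40% of all genes higher and 5.31% lower). The gene called was Rpl4, with 371, 324 and 347 CPM in sham against 477, 564 and 458 in AKI_PTPi_mEVs (log2 fold change 0.53 ± 0.13, edgeR adjusted p = 0.0212), and its change in AKI_PBS against sham was 0.51 ± 0.13. The call was lost without sham 2 (0.48), sham 3 (0.53) or AKI_PTPi_mEVs 2 (0.42). In 3 genes, Rpl4, Rpl3 and Rpsa, every AKI_PTPi_mEVs library lay above every sham library, as in 21.2% of all genes; the reverse held for 0 members and 18.1% of all genes. Rpl3 had 0.42 (edgeR adjusted p = 0.0803) and passed without AKI_PBS 3 (0.42) or with the GC content and length correction (0.47). Rpsa was at 155, 253 and 208 CPM in AKI_PTPi_mEVs (0.48 ± 0.20, edgeR adjusted p = 0.123) and passed with no filter on low counts (0.50). Rplp0 had 0.29 ± 0.16 and Rps24 0.35 ± 0.18. A gene without a call here is not shown to be at the sham level, since the spread among the AKI_PTPi_mEVs libraries was wide.

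The balance between the subunits was read as the ratio of summed counts. It was 2.001, 1.958 and 2.06 in sham, 1.82, 1.78 and 1.93 in AKI_PBS, and 2.16, 2.02 and 2.07 in AKI_PTPi_mEVs. The AKI_PBS libraries were lowest and did not overlap with either other group. The 3 abundant genes Rplp0, Rpl4 and Rpl3 held 19.5 to 23.1% of all member counts in sham, 19.4 to 22.8% in AKI_PBS and 23.9 to 28.1% in AKI_PTPi_mEVs. Without them the ratio was 1.38, 1.38 and 1.36 in sham (mean 1.37), 1.27, 1.22 and 1.26 in AKI_PBS, and 1.27, 1.30 and 1.33 in AKI_PTPi_mEVs. The sham libraries were then above all libraries of both injured groups, and the groups with injury overlapped. These 3 genes were chosen after their values were seen.

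Paralogs of 1 ribosomal protein did not always share their calls, and whether their changes differ from each other was not tested. Rps27l, a paralog of Rps27 known as a p53 target, was the more abundant transcript of the pair, at 82.1, 66.7 and 52.7 CPM in sham, 77.2, 66.6 and 61.2 in AKI_PBS and 40.8, 60.3 and 57.2 in AKI_PTPi_mEVs. Its log2 fold changes were 0.02 ± 0.19 and -0.38 ± 0.19 in the comparisons of AKI_PBS with sham and of AKI_PTPi_mEVs with AKI_PBS, and neither passed. The direction of the first turned without sham 3 (-0.13), without AKI_PBS 1 (-0.07) and under 3 other settings. In the second, every AKI_PTPi_mEVs library lay below every AKI_PBS library for Rps27l, as for Rps27. Rps27 was at 19.3, 17.5 and 14.7, 20.9, 29.1 and 24.7 and 14.1, 20.1 and 16.6 CPM in the same order (0.54 ± 0.19 and -0.56 ± 0.19), and passed both times. Its first call was lost without sham 2 (0.54), sham 3 (0.43) or AKI_PBS 2 (0.41), and its second without AKI_PBS 2 (-0.43), AKI_PTPi_mEVs 1 (-0.43), AKI_PTPi_mEVs 3 (-0.53) or with the GC content and length correction (-0.37). The ratio of Rps27l to Rps27 counts was 4.3, 3.8 and 3.58 in sham, 3.69, 2.3 and 2.5 in AKI_PBS and 2.9, 3.0 and 3.4 in AKI_PTPi_mEVs; sham 3 and AKI_PBS 1 overlapped. The windows printed above place an uninterrupted pyrimidine run across the annotated start of Rps27 and just upstream of that of Rps27l.

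Rpl36a rose in AKI_PBS (0.69 ± 0.24, edgeR adjusted p = 0.0275; 0.73, 0.54 and 0.53 and no call without sham 2, sham 3 or AKI_PBS 2), while its paralog Rpl36al had 0.39 ± 0.28 and no call. Between AKI_PTPi_mEVs and AKI_PBS they differed by -0.36 ± 0.24 and -0.56 ± 0.29, with no call for either; Rpl36al was called without AKI_PTPi_mEVs 2 (-0.81). Rpl3l, the muscle form of Rpl3, was at 4.41, 5.39 and 5.08 CPM in sham, 3.80, 4.29 and 4.68 in AKI_PBS and 2.29, 4.58 and 4.07 in AKI_PTPi_mEVs, about 1.01 to 2.81% of the Rpl3 count over the 9 libraries. Rpl39, in the wall of the peptide tunnel, rose by 0.91 ± 0.28 in AKI_PBS and was not called without sham 3 (0.83) or AKI_PBS 2 (0.64); its testis paralog Rpl39l was at 0 counts, as was Rpl10l, the retrogene of Rpl10. Rpl39 in AKI_PTPi_mEVs against AKI_PBS had -0.55 ± 0.28 with no call, and passed without AKI_PBS 3 (-0.72).

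Ribosomal protein genes have many processed copies in the mouse genome, and reads from a copy and its parent can be exchanged in counting. The table held 297 genes named as pseudogenes of 59 members, up to 24 for 1 member. Their summed counts were 416 to 506 in sham, 708 to 911 in AKI_PBS and 361 to 433 in AKI_PTPi_mEVs, 0.770 to 1.17% of the members' own counts. Adding them to their parents left 46 higher, 35 lower and 1 higher in the 3 comparisons. Of the 59 genes with a named copy 31 rose in AKI_PBS (median 0.54), and of the 20 with none 15 rose (median 0.63). The counting of reads that match several places is not given in the sources used here. Copies under other symbols were not counted, and adding counts does not restore any reads set aside in counting. The shares above therefore do not bound the uncertainty, which also holds for the 20 members with no named copy.

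A pyrimidine run near the annotated start, as counted here, did not go with larger changes. In AKI_PBS against sham, 11 of the 23 genes with a run of 8 or more rose (median 0.51), as did 24 of the 36 without one (median 0.65). In AKI_PTPi_mEVs against AKI_PBS the counts lower were 9 of 23 (median -0.41) and 19 of 36 (median -0.56). These are descriptions of annotated starts, and the difference between the sets was not tested. Runs wholly before the annotated first base count here, so the split does not separate TOP messages from others and cannot speak to TOP control.

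Genes listed as ribosomal proteins that the naming rule leaves out were read in the same fit. In AKI_PBS against sham 27.8% of all genes were called higher and 27.9% lower. Of the 6 listed, 4 rose in AKI_PBS and 0 fell: Rps3a1 (0.95 ± 0.20), Fau (0.62 ± 0.18), which is fused to a ubiquitin-like peptide, Rack1 (0.65 ± 0.21), a signalling scaffold on the small subunit, and Rpl22l1 (1.36 ± 0.26). Rpl22l1, the paralog of Rpl22, was at 7.35, 5.49 and 3.56 CPM in sham, 12.4, 14.9 and 14.8 in AKI_PBS and 3.67, 5.68 and 5.06 in AKI_PTPi_mEVs, high in every AKI_PBS library (AKI_PTPi_mEVs against AKI_PBS -1.55 ± 0.27). Rpl22 itself, named after its values were seen, had a change of 0.06 ± 0.19 in AKI_PBS. In AKI_PTPi_mEVs against AKI_PBS, 3 of the 6 were lower, against 25.8% of all genes. Rpl7l1 went the other way and was higher (0.51 ± 0.13), as were 25.4% of all genes. It was also higher in AKI_PTPi_mEVs than in sham (0.47 ± 0.13).

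Other messages of the TOP class and the translation factors were followed in the same fit, where 27.8% of all genes were called higher and 27.9% lower in AKI_PBS against sham, and 25.4% higher and 25.8% lower in AKI_PTPi_mEVs against AKI_PBS. Of 19 other TOP messages, 16 rose in AKI_PBS and 0 fell (median 0.58), with Gas5, a snoRNA host, at 1.15 ± 0.14, the histone chaperone Nap1l1 at 0.92 ± 0.13 and nucleophosmin Npm1 at 0.92 ± 0.14; 12 of the 19 also stand in other lists described here. In AKI_PTPi_mEVs against AKI_PBS 10 of them were lower and 0 higher. Elongation factors had 6 of 9 higher in AKI_PBS, including Eef1b2 (0.74 ± 0.17), and 2 of 9 lower in AKI_PTPi_mEVs than in AKI_PBS. Eef1g was higher than in sham in both injured groups (0.73 ± 0.15 and 0.81 ± 0.15). Initiation factors had 21 of 40 higher and 0 lower in AKI_PBS, with the smallest adjusted p in Eif6 (1.85 ± 0.19), which keeps the subunits apart, Eif2s2 (1.07 ± 0.13) and Eif1a (1.25 ± 0.15). Of these 40, 14 were lower, among them Eif1 (-1.26 ± 0.15) and Eif5 (-1.001 ± 0.13), and 5 higher in AKI_PTPi_mEVs against AKI_PBS. In AKI_PTPi_mEVs against sham 11 were higher and 1 lower, where 7.43% of all genes were called higher and 5.79% lower.

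Upstream regulators are read against the same shares of all genes, 27.8% higher and 27.9% lower in AKI_PBS against sham and 25.4% and 25.8% in AKI_PTPi_mEVs against AKI_PBS. Of 25 genes of the mTORC1 pathway and LARP1, 10 rose and 6 fell in AKI_PBS (median 0.06). The 3 with the smallest adjusted p were Tsc1 (1.37 ± 0.15), Ddit4 (2.64 ± 0.33) and Eif4ebp1 (2.21 ± 0.26), all negative regulators of this pathway or its output. Negative regulators did not all rise: Castor1 (-0.70 ± 0.23) and Depdc5 (-0.45 ± 0.17), named after their values were seen, fell in AKI_PBS. Tsc1, Ddit4 and Eif4ebp1 in AKI_PTPi_mEVs against AKI_PBS had -1.68 ± 0.15, -2.45 ± 0.33 and -1.59 ± 0.25, within 8 lower and 5 higher of 25, which is near the share of all genes. The inhibitor Akt1s1, also named after its values were seen, was higher there (0.47 ± 0.13). Of 7 S6 kinases of the RSK family, 1 rose (Rps6ka3, 1.09 ± 0.16) and 1 fell (Rps6ka6, -0.79 ± 0.32). Of 14 transcription regulators of ribosome production, 7 rose and 0 fell, with Gabpb1, part of a factor that binds many ribosomal protein promoters, at 1.05 ± 0.14, Myc at 2.81 ± 0.40 and its antagonist Mnt at 1.24 ± 0.19. In AKI_PTPi_mEVs Myc and Gabpb1 were still above sham (1.95 ± 0.39 and 0.60 ± 0.14), and 5 of the 14, Mnt and Mxd4 among them, were lower than in AKI_PBS (-1.39 ± 0.20 and -0.85 ± 0.14). Of 7 snoRNA host genes, 5 rose in AKI_PBS and 6 were lower in AKI_PTPi_mEVs than in AKI_PBS.

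**Figure D5:**
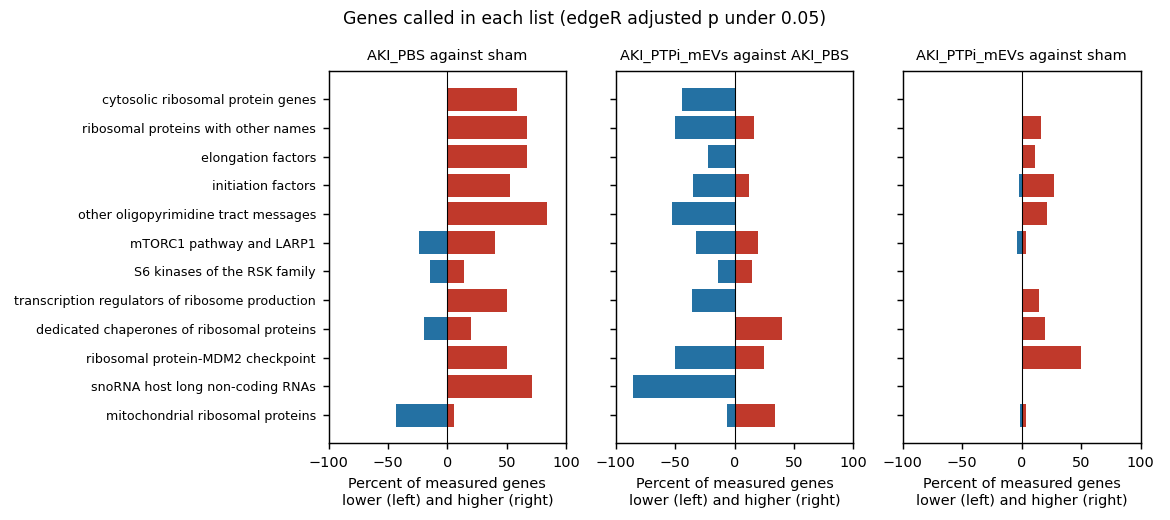
Percent of the measured genes of each list called higher (right, red) and lower (left, blue) by edgeR at an adjusted p under 0.05 in the 3 comparisons. The cytosolic ribosomal protein genes are called only higher in AKI_PBS against sham and only lower in AKI_PTPi_mEVs against AKI_PBS, and the mitochondrial ribosomal proteins mostly the other way round.

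The ribosomal proteins of the mitochondrion, encoded by a separate gene set, had mostly calls of the opposite sign. Of 77 measured, 4 rose and 33 fell in AKI_PBS (median -0.36), where 27.8% of all genes tested were called higher and 27.9% lower. In AKI_PTPi_mEVs against AKI_PBS 26 were higher and 5 lower (median 0.17), against 25.4% and 25.8% of all genes. In AKI_PTPi_mEVs against sham 3 were higher and 1 lower, against 7.43% and 5.79% of all genes. Counts from the mitochondrial genome took 1.63 to 2.29% of a sham library, 2.03 to 2.43% in AKI_PBS and 1.23 to 1.39% in AKI_PTPi_mEVs, and the nuclear RNAs Malat1 and Neat1 together 0.315 to 0.362%, 0.699 to 1.01% and 0.322 to 0.337%. The part of these library measures in the members' changes was not tested.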

How the data were processed

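Gene counts of 9 kidney libraries were used as deposited. The authors made the raw count table with STAR and HTSeq, per the submitters' processing notes, without versions; the input was 100 ng of RNA and the kit Tn5-based, per the labels' protocols. The notes name a human build, GRCh38.p14, although the identifiers are mouse Ensembl genes, so that the build was not settled and no gene coordinates from it are given. Strand setting: not given in the sources used here.

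Symbols and biotypes came from the mouse annotation (52073 of 56923 identifiers had a symbol, 4850 had none). Genes were filtered with filterByExpr by group, scaled with TMM factors and fitted over all 9 libraries with edgeR 4.0.16 (glmQLFit robust, a mean per group) in R 4.3.3, with Benjamini-Hochberg adjustment over the 17036 genes tested and a threshold of 0.05. CPM are on the TMM-scaled totals. Values after ± are standard errors for log2 fold changes and SD (n = 3) for means. DESeq2 1.42.0, limma 3.58.1 (voom), other scalings and filters, a GC content and length correction, a fit per pair of groups, a replicate block, added pseudogene counts, and leaving out each library were tried. The steps were tested on simulated data. Levels per length used 1 principal transcript a gene, and the lengths taken for Rps15a (5130 bases) and Rps20 (3706 bases) may be too long.

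The members, the lists and the genes named were chosen with earlier results of these data known, and no list is independent evidence. The genes named were, per comparison, the 6 called genes of each subunit with the smallest adjusted p (the 2 smallest where none was called), the stalk, Rpsa, Rps6, Rpl5, Rpl11, Rps27a and the paralog pairs, up to 3 genes of each other list, and the 3 members with the highest level per length. A name outside this rule is given as such or as part of a count. No libraries were found to be duplicates.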

Additional observations from a re-analysis of the deposited data

How the results depend on the processing

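The count higher in AKI_PBS against sham (46) was 23 to 52 with 1 library left out, 50 with library totals, 37 with a stricter filter, 33 past 1.5-fold, 62 with the GC content and length correction and 61 with that correction and the replicate block. The count lower there was 1 with no low-count filter and 0 to 1 with a library left out, the gene being Rpl29. The count lower in AKI_PTPi_mEVs against AKI_PBS (35) was 11 to 47 with 1 library left out, 27 past 1.5-fold and 33 to 40 otherwise; 0 were higher throughout. In AKI_PTPi_mEVs against sham the count higher (1) was 2 with no low-count filter, 3 with the GC content and length correction, 2 with that correction and the replicate block, 0 past 1.5-fold and 0 to 2 with a library left out; 0 were lower throughout. For Rps27l the sign in AKI_PBS against sham turned with no low-count filter (-0.010), with the stricter filter (-0.0087), and without sham 3 (-0.13), AKI_PBS 1 (-0.07) or AKI_PTPi_mEVs 2 (-0.0058); with a library left out it ran from -0.13 to 0.18. For Rpl3l the sign in AKI_PTPi_mEVs against AKI_PBS turned without AKI_PTPi_mEVs 1 (0.038), in a range of -0.41 to 0.038. The cause was not tested. Over the named genes, 1081 alternative values kept their side of the threshold and direction, 54 lost a call and 15 gained one.

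Replicate numbers did not pair the libraries: deviations of same-numbered libraries correlated at -0.187 to 0.111, with 1 of 9 pairs over 0.1, against -0.171 to 0.146 for other pairs. With the replicate block the counts were 46 higher, 35 lower and 1 higher, and the Rps6 call in AKI_PBS against sham was not made (0.51). Every member had 25 or more counts in each library, but several members with few counts had larger standard errors. In AKI_PBS against sham these were 0.28 for Rpl39 and 0.27 for Rpl3l, against 0.13 for Rpl4. The 3 libraries per group, and the shared highs and lows of their members, also limit the precision.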

Other observations

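Genes that act on free ribosomal proteins are read against the shares of all genes. These were 27.8% higher and 27.9% lower in AKI_PBS against sham, and 25.4% and 25.8% in AKI_PTPi_mEVs against AKI_PBS. Of 5 chaperones dedicated to single ribosomal proteins, 1 rose and 1 fell in AKI_PBS, near the share of all genes. Grwd1, which carries Rpl3, rose in AKI_PBS (log2 fold change 0.85 ± 0.14) and was above sham in AKI_PTPi_mEVs as well (1.16 ± 0.14, edgeR adjusted p = 0.00052). Aamp fell in AKI_PBS (-0.47 ± 0.12). Aamp and Heatr3, which carries Rpl5 and Rpl11, were higher in AKI_PTPi_mEVs than in AKI_PBS (0.50 ± 0.12 and 0.78 ± 0.15). Grwd1 was at 29.4, 36.2 and 33.1 CPM in sham, 53.4, 63.3 and 61.8 in AKI_PBS and 70.7, 83.8 and 65.3 in AKI_PTPi_mEVs, with both injured groups above sham.

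In the MDM2 checkpoint to which free Rpl5 and Rpl11 belong, Cdkn1a, a p53 target, was at 13.6, 9.95 and 9.25 CPM in sham, 531, 562 and 819 in AKI_PBS and 36.1, 53.3 and 32.6 in AKI_PTPi_mEVs. Its 3 groups did not overlap. Mdm2 rose in AKI_PBS (0.46 ± 0.13), and Trp53 had -0.21 ± 0.13 there with no call and was higher in AKI_PTPi_mEVs than in AKI_PBS (0.83 ± 0.13). Rps27l, also known as a p53 target, had no call in the same comparison of AKI_PBS with sham.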
